A study of Mus musculus with 6 samples.

Results

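The mitochondrial ribosomal protein genes are the nuclear genes, named Mrpl and Mrps followed by a number, for the proteins of the large and the small subunit of the ribosome inside mitochondria. The members were chosen by symbol alone, from the Entrez gene number in each probe set ID, and 71 of the 15267 genes measured carry such a symbol. The brightness of the probe sets, averaged over all arrays, would have decided between probe sets of 1 gene. It decided nothing here, because 0 members had more than 1 probe set, and it is given only as a description. No difference between groups entered the choice, although the family was proposed with earlier results of these data known. RefSeq's mouse genes (GRCm38.p6) include 78 such symbols, and the other 7 were not analysed here.

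E14Tg2a.4 cells, an embryonic stem line of the mouse, were kept on gelatin in M15 medium, lipofected, and collected for RNA on day 4. The Fip1l1 gene encodes Fip1, part of the complex that recognises the poly(A) signal and directs cleavage and polyadenylation of mRNA. The 6 arrays form 3 groups of 2: siFip1-2 (a first siRNA against Fip1l1), siFip1-3 (a second siRNA against the same gene) and Mock (lipofectamine alone). All groups share the cell line, the medium and the lipofection, and none received a non-targeting siRNA, so the effect of carrying any siRNA cannot be told apart from that of depleting Fip1. Each group has a replicate 1 and a replicate 2, and the titles give the same suffix to all arrays of 1 replicate number. The labels name no separate cultures, so each p-value reflects array-to-array spread only, which may be technical.

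The mitochondrial ribosome translates the few mRNAs made from mitochondrial DNA, which encode core subunits of the respiratory chain and of ATP synthase. Its RNAs come from mitochondrial DNA, but all of its proteins are made in the cytosol from polyadenylated nuclear transcripts and then imported. Some of these proteins have bacterial counterparts and keep the ancient architecture (stalks, decoding centre, exit tunnel), and others exist only in mitochondria. Of the 71 members, 48 belong to the large subunit and 23 to the small subunit. By the class assigned here, 42 are counted as having a bacterial homologue and 29 as specific to mitochondria. Mrps18a, a relative of bacterial S18, is counted among the 29. Mrps30 and Mrps18a carry small-subunit symbols but sit in the large subunit, and they are counted there.

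Nuclear genes for mitochondrial proteins are known for promoters with sites for NRF1, for the ETS factor GABPA and for YY1. The RefSeq promoter table (GRCm38.p6, 250 bases before to 50 after a gene's start) matched 63 of the 71 members, with 66 windows. The ETS letters CCGGAAG, on either strand, were in 34.8% of these 66 windows, against 8.86% of all 32851 windows of the same length. The NRF1 core letters GCATGCGC were in 10.6% against 2.71%, and the YY1 letters AAGATGGCG in 12.1% against 1.4%. At least 1 of the 3 motifs was in 50% of the member windows, against 12.1% of all windows, and the ETS and YY1 matches overlapped in 0 windows. These shares describe the letters of the windows and carry no test. The 3 windows below belong to members that fell after Fip1 siRNA and show each motif in capitals: the NRF1 core in Mrpl10 (chr11:97041332-97041631, plus strand), ETS in Mrpl21 (chr19:3282792-3283091, plus strand), and ETS followed by YY1 in Mrps18a (chr17:46110754-46111053, plus strand).
Mrpl10: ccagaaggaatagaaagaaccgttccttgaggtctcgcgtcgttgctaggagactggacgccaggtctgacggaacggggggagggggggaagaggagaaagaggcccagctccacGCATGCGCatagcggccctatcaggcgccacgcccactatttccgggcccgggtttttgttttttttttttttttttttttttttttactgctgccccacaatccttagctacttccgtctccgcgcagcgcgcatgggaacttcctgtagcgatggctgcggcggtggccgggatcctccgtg
Mrpl21: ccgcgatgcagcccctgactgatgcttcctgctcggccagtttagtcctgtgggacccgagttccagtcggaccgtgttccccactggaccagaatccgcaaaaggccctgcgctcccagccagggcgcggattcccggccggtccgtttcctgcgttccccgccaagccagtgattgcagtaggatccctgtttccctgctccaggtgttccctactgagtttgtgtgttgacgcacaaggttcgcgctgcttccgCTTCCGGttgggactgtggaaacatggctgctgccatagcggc
Mrps18a: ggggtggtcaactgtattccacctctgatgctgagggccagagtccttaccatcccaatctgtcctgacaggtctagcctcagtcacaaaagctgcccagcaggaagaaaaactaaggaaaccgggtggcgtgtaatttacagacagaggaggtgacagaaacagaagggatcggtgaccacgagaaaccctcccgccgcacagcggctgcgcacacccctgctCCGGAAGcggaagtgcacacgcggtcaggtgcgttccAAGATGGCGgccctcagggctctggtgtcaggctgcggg
Of the 10 members that fell, 8 had a window, and 3 of the 8 held at least 1 of the 3 motifs. The other windows held none of these letters.

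The array medians ran from 6.08 to 6.12 on the log2 scale, and arrays correlated at 0.986 to 0.997 over genes. All siRNA arrays had less of the targeted mRNA than both Mock arrays. Fip1l1 was 8.26 and 7.79 in siFip1-2, 8.39 and 7.86 in siFip1-3, and 9.65 and 9.74 in Mock (log2 values, replicates 1 and 2). It fell by 1.62 (SE 0.176, limma adjusted p = 0.00176), which left 32.5% of the Mock level.

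The family as a whole lay slightly below Mock with both siRNAs, and 10 members fell by themselves. The log2 value is the RMA summary of a probe set, and a difference is the mean of the siRNA arrays minus the mean of the Mock arrays. For the mean of both siRNAs, 59 of the 71 members had a negative difference and 12 a positive one. The median member difference was -0.152, which is 90.0% of the Mock level, while the median over all 15267 genes was -0.002. In limma, with Benjamini-Hochberg adjustment over all genes and a threshold of 0.05, 10 members fell (14.1%) and 0 rose. Over all genes tested 6.19% fell and 4.15% rose, 10.3% in either direction. At an unadjusted p under 0.05, 24 members were lower and 1 was higher, where 13.7% of all genes were lower and 10.6% higher. No member changed by as much as 2-fold.

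Most members were bright. The median member stood at the 90.8th percentile of mean level. Between the quartiles of the members' level (log2 9.02 to 10.7) lay 1854 genes, of which 9.55% fell and 7.12% rose, with a median difference of -0.007. The 35 members in that range had a median of -0.148, and 6 of them fell. This comparison with genes of like level was chosen after seeing the data.

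All 4 siRNA arrays lay below both Mock arrays for 36 members (50.7%), where 18.4% of all genes and 25.5% of the genes of like level did so. The 4 siRNA arrays lay above both Mock arrays for 4 members, or 5.63%, against 15.2% of all genes. For 31 members the groups overlapped. Each siRNA array was also set against the same-numbered Mock array: 41 members were negative in all 4 such differences and 6 positive in all 4, which is 57.7% and 8.45%. Over all genes those shares were 25.4% and 22%.

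**Figure D1:**
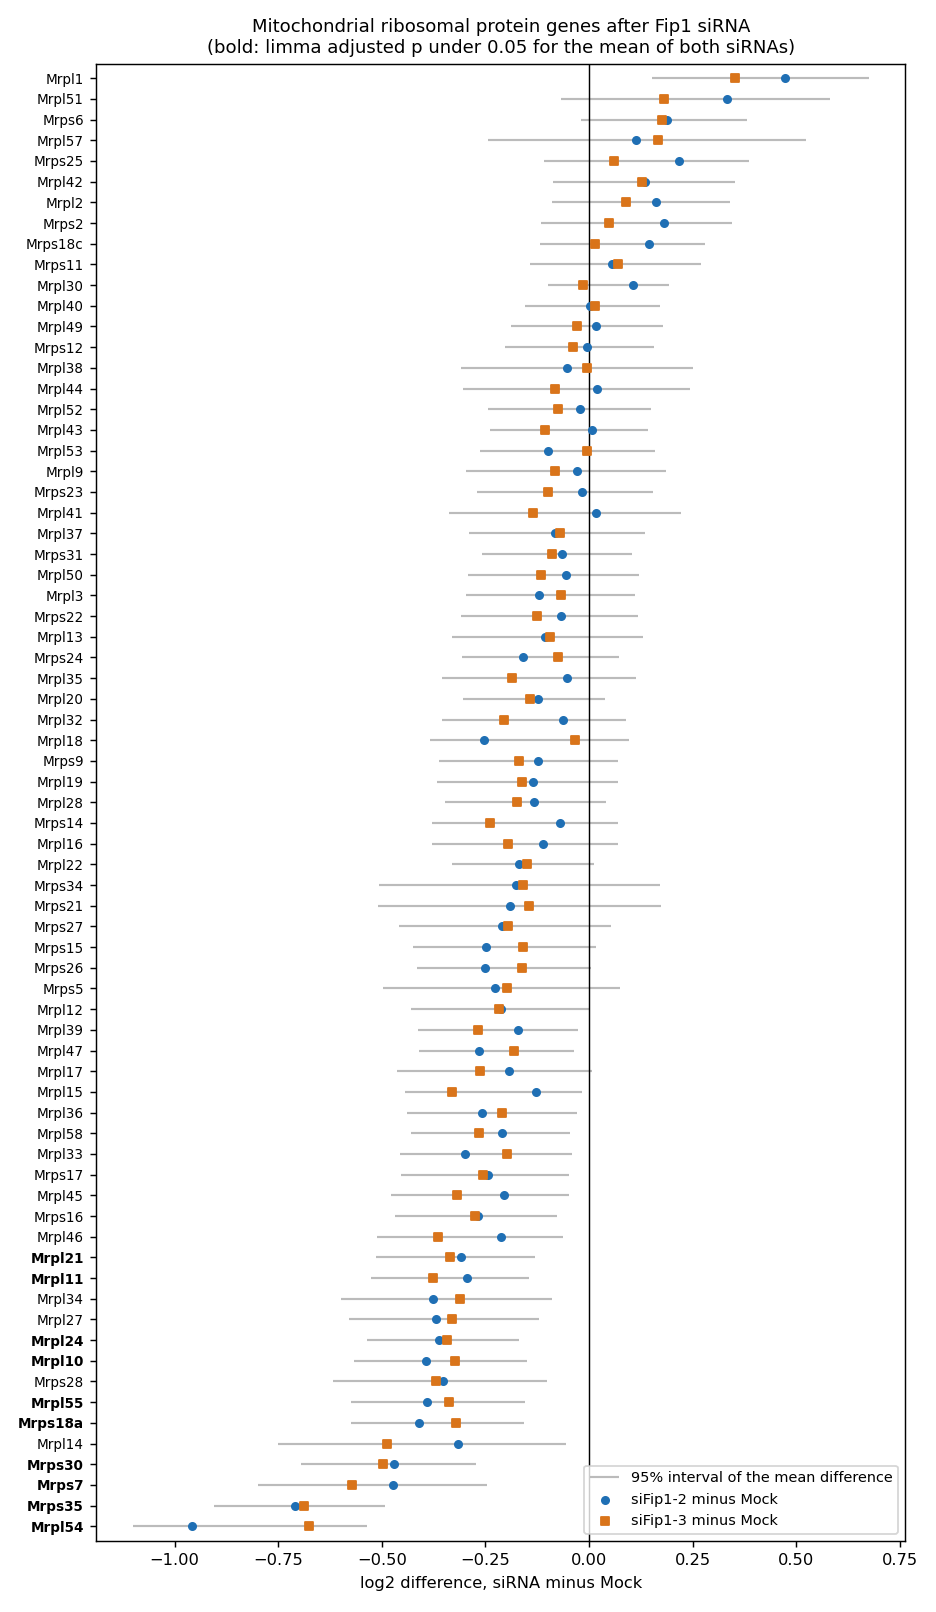
Log2 difference from Mock for each of the 71 members, ordered by the mean of both siRNAs, with siFip1-2 as blue circles, siFip1-3 as orange squares and the 95% interval of the mean difference as a grey line. Bold names are the 10 members that fell, and 59 of the 71 mean differences are below 0.

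Both replicates showed the shift, and it was larger in replicate 2. In replicate 1 the median member difference was -0.113, with 56 members negative. In replicate 2 it was -0.172, with 58 members negative. The medians over all genes were -0.001 and -0.012. Fip1l1 had a difference of -1.32 in replicate 1 and of -1.92 in replicate 2, and its part in the larger member shift was not tested.

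**Figure D2:**
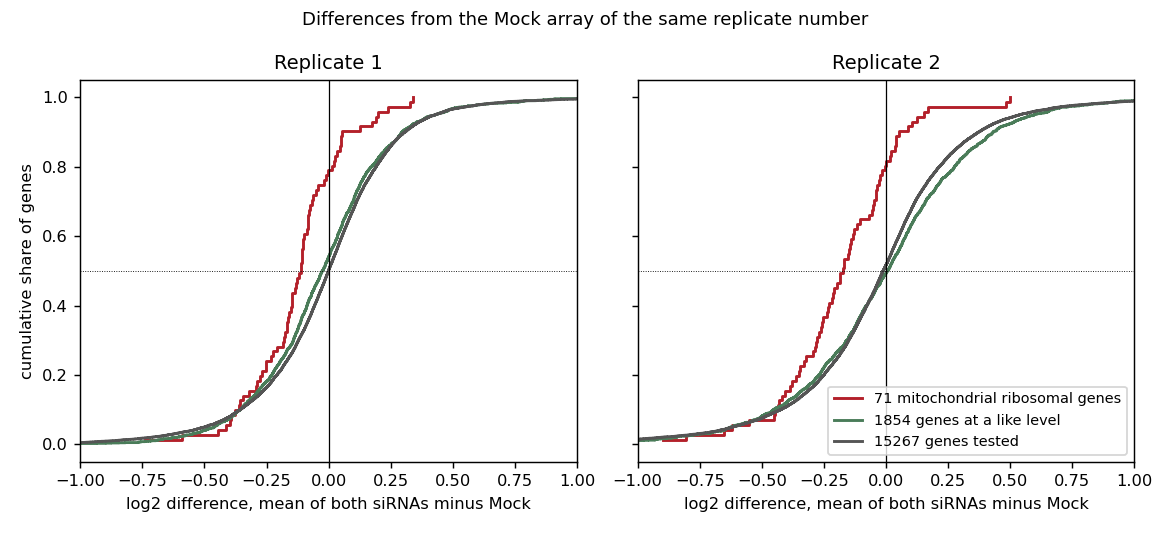
Cumulative share of genes against the log2 difference within each replicate (mean of both siRNAs minus Mock), for the members (red), genes of like level (green) and all genes (grey). The red curve reaches the dotted median line at -0.113 in replicate 1 and -0.172 in replicate 2, left of the other curves.

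The largest falls were those of Mrpl54 and Mrps35, neither of which has a bacterial counterpart. Mrpl54, a mitochondria-specific protein of the large subunit, was 7.99 and 7.89 in siFip1-2, 8.40 and 8.05 in siFip1-3, and 8.94 and 8.87 in Mock. Its highest siRNA array was still below the lower Mock array, and siFip1-2 was lower than siFip1-3 in each replicate. It fell by 0.82 on the log2 scale (SE 0.123, 1.76-fold, limma adjusted p = 0.00611). Mrps35, a mitochondria-specific protein of the small subunit, was 9.58 and 9.54 in siFip1-2, 9.6 and 9.56 in siFip1-3, and 10.18 and 10.35 in Mock. The 4 siRNA arrays of Mrps35 lay close together, below both Mock arrays. It fell by 0.70 (SE 0.0901, 1.62-fold, adjusted p = 0.00331). Mrps30, in the large subunit despite its name, was 10.08 and 9.96 in siFip1-2, 10.02 and 9.96 in siFip1-3, and 10.40 and 10.58 in Mock. It fell by 0.48 (SE 0.0921, adjusted p = 0.0147). Mrps18a, a relative of bacterial S18 that sits in the large subunit and is counted here as specific to mitochondria, was 8.96 and 9.001 in siFip1-2, 9.11 and 9.03 in siFip1-3, and 9.44 and 9.35 in Mock. The groups did not overlap, and it fell by 0.37 (SE 0.0914, adjusted p = 0.0402).

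Among members with a bacterial homologue 6 fell, all by less than 1.5-fold. Mrps7, which corresponds to bacterial S7 in the head of the small subunit, was 9.89 and 9.53 in siFip1-2, 9.72 and 9.503 in siFip1-3, and 10.20 and 10.17 in Mock. The siRNA arrays differed more among themselves than the Mock arrays did, and all lay below Mock. Mrps7 fell by 0.52 (SE 0.121, 1.44-fold, adjusted p = 0.0304). Mrpl10 and Mrpl11 build the base of the stalk that calls elongation factors to the ribosome. Mrpl10 was 9.30 and 9.29 in siFip1-2, 9.37 and 9.35 in siFip1-3, and 9.604 and 9.77 in Mock. Mrpl11 was 11.04 and 10.86 in siFip1-2, 10.91 and 10.83 in siFip1-3, and 11.23 and 11.27 in Mock. Both genes were lower on all siRNA arrays, Mrpl10 by 0.36 (adjusted p = 0.0429) and Mrpl11 by 0.33 (adjusted p = 0.0394). Mrpl12, the flexible stalk protein that Mrpl10 holds, was lower by a log2 difference of -0.21, short of the threshold (adjusted p = 0.206), although its groups did not overlap.

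Mrpl24, the counterpart of bacterial L24 beside the peptide exit tunnel, was 10.90 and 11.06 in siFip1-2, 10.99 and 11.00 in siFip1-3, and 11.30 and 11.38 in Mock. It fell by 0.35 (SE 0.0801, adjusted p = 0.0286). Mrpl21, the counterpart of bacterial L21, was 10.39 and 10.34 in siFip1-2, 10.38 and 10.30 in siFip1-3, and 10.74 and 10.60 in Mock, a fall of 0.32 (adjusted p = 0.0465). Mrpl55, which takes the place of bacterial L31, was 8.62 and 8.59 in siFip1-2, 8.66 and 8.66 in siFip1-3, and 8.96 and 9.03 in Mock, a fall of 0.36 (adjusted p = 0.0415). For these 3 genes too, no siRNA array reached the level of a Mock array.

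**Figure D3:**
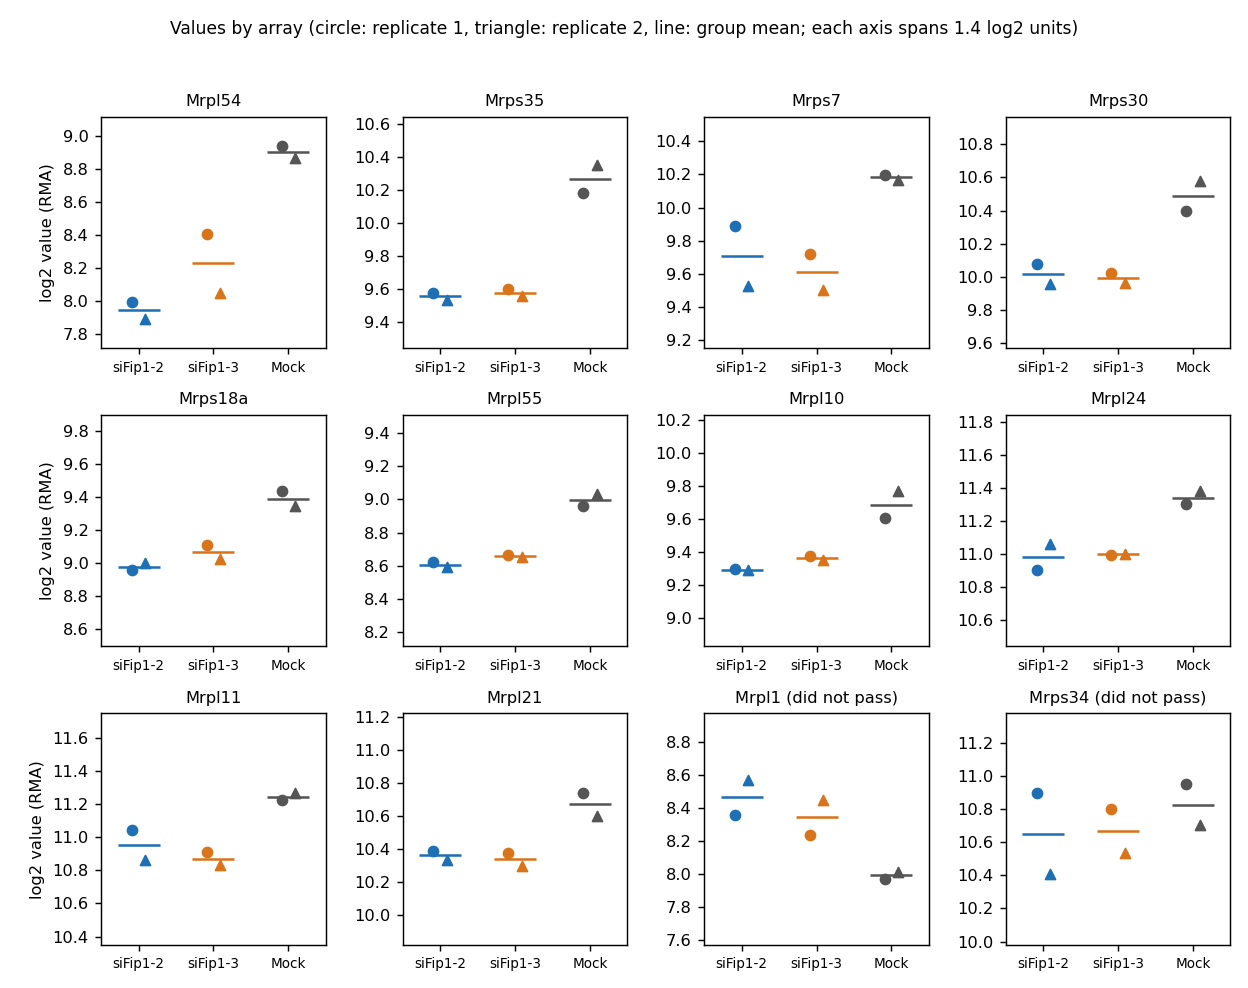
Log2 values of the 10 members that fell, of Mrpl1 and of Mrps34 on each array, with circles for replicate 1, triangles for replicate 2 and a line at each group's mean. For the first 10 genes all siRNA points lie below both Mock points, for Mrpl1 all lie above them, and for Mrps34 the replicate 2 point is the lower one in every group.

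Mrpl1, of the movable stalk that releases used tRNA, ran against the family. It was 8.36 and 8.57 in siFip1-2, 8.24 and 8.45 in siFip1-3, and 7.97 and 8.01 in Mock. All 4 siRNA arrays were above both Mock arrays, and the difference of 0.41 (SE 0.115, 1.33-fold) did not pass (adjusted p = 0.0573). It was the largest positive difference in the family. The other members closest to the threshold had negative differences and did not pass: Mrpl27 (-0.35, adjusted p = 0.0628), a counterpart of bacterial L27 near the peptidyl transferase centre, Mrps28 (-0.36, 0.0846), Mrps16 (-0.27, 0.0855), a counterpart of bacterial S16, and Mrpl34 (-0.34, 0.0919), a counterpart of bacterial L34. In each of these 4 genes all siRNA arrays lay below both Mock arrays. Mrpl14, which lies at the subunit interface, had a difference of -0.40 but overlapping groups, with 8.02 and 8.31 in siFip1-2, 7.97 and 8.01 in siFip1-3, and 8.25 and 8.72 in Mock (adjusted p = 0.143).

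With the replicate number as a block in the model, 18 members fell and 1 rose, against 11.7% lower and 8.43% higher over all genes. The 18 include all 10 named above, and the gene that rose was Mrpl1 (adjusted p = 0.0108). Mrpl27 (0.0103), Mrps28 (0.00975), Mrps16 (0.0273), Mrpl34 (0.00777) and Mrpl14 (0.025) fell in that fit. After median centring of the arrays 5 members fell (7.04%, against 5.43% of all genes) and Mrpl1 rose (4.74% of all genes rose), so the share of falls was then near the background. After repeated quantile normalization 7 fell (9.86%, against 5.41% of all genes) and 0 rose (4.68% of all genes). Each of the 6 arrays had weight in the count: 5 members fell without siFip1-2 replicate 1 (3.9% of all genes fell), 3 without siFip1-2 replicate 2 (3.01%), 4 without siFip1-3 replicate 1 (5.21%), 3 without siFip1-3 replicate 2 (4.46%), 3 without Mock replicate 1 (3.6%) and 1 without Mock replicate 2 (1.09%). These counts are 1.41% to 7.04% of the members, near the background in most of these fits. Mrps35 fell in all 6 of these fits (adjusted p 0.00512 to 0.0494). Mrpl54 missed the threshold without Mock replicate 2 (0.0566), and Mrps30 missed it without that array (0.147) and without siFip1-2 replicate 2 (0.0527).

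Members were also counted by subunit and class. In the large subunit 8 of 48 members fell, with a median difference of -0.15 and 41 negative. In the small subunit 2 of 23 fell, with a median of -0.15 and 18 negative. Of the 42 members with a bacterial homologue 6 fell, with a median of -0.16 and 35 negative. Of the 29 members specific to mitochondria 4 fell, with a median of -0.08 and 24 negative. These falls are 16.7% of the large subunit, 8.7% of the small subunit, 14.3% of the bacterial homologues and 13.8% of the mitochondria-specific members. Of all genes tested 6.19% fell, and 9.55% of the genes of like level, so the small-subunit share was near the background. Differences between the subunits or between the classes were not tested. The members lie on 17 chromosomes, and chromosome 11 holds the most, 11, of which 3 fell.

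Members with central tasks were among those that did not pass. Mrps12, the counterpart of bacterial S12 in the decoding centre, was 10.73 and 10.69 in siFip1-2, 10.71 and 10.64 in siFip1-3, and 10.76 and 10.67 in Mock. Its groups overlapped, and its difference was -0.02 (95% interval -0.202 to 0.158). Mrpl45, which anchors the ribosome to the inner membrane at the exit tunnel, had a difference of -0.26 that did not pass (adjusted p = 0.126), and siFip1-2 replicate 1 reached the Mock range. Among the brightest probe sets, Mrpl30 (0.05) and Mrpl42 (0.13) did not pass either. The dimmest were Mrpl41 (-0.06), Mrpl51 (0.26) and Mrps25 (0.14), none of which passed. Mrpl41, at the 34.4th percentile of mean level, averaged 4.85 in the siRNA groups and 4.91 in Mock. Brightness does not rank mRNA levels between genes.

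The siRNAs were then compared one by one. With siFip1-2, 3 members fell and 0 rose, and with siFip1-3, 3 fell and 0 rose. The same 3 genes passed with each: Mrpl54 (-0.96 with siFip1-2 and -0.68 with siFip1-3), Mrps35 (-0.71 and -0.69) and Mrps30 (-0.47 and -0.50). The comparisons share the Mock arrays. Over all genes 4.01% fell and 2.91% rose with siFip1-2, and 3.48% fell and 2.26% rose with siFip1-3, so the members' share of falls for a single siRNA (4.23%) was near the background. The median member difference was -0.13 with siFip1-2 and -0.16 with siFip1-3. With the replicate block 13 members fell and 1 rose with siFip1-2 (9.95% and 7.24% over all genes), and 17 fell with siFip1-3 (8.38% over all genes). At an unadjusted p under 0.05, 19 members were lower and 1 higher with siFip1-2, and 21 were lower and 1 higher with siFip1-3. Over all genes 12.2% were lower and 10.1% higher with siFip1-2, and 12.1% lower and 8.44% higher with siFip1-3.

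Directly against each other, the siRNAs gave 0 members past the threshold and 0% of all genes, and 0 members had an unadjusted p under 0.05. The smallest p-values were those of Mrpl54 (siFip1-2 minus siFip1-3 -0.28, 95% interval -0.608 to 0.043), Mrpl15 (0.20, -0.044 to 0.451) and Mrpl18 (-0.22, -0.495 to 0.059), each with an adjusted p of 0.984. Mrpl15 and Mrpl18 are counterparts of bacterial L15 and L18. The interval for Mrpl54 thus reaches beyond the size of several of the falls reported above.

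Between the replicates the family moved little. Replicate 2 minus replicate 1, over the 3 groups, had a median of -0.01 over the members, and 1 of 71 passed, against 2.5% of all genes. That member was Mrps34, a mitochondria-specific protein of the small subunit. It was 10.90 and 10.41 in siFip1-2, 10.80 and 10.54 in siFip1-3, and 10.95 and 10.71 in Mock, and fell by 0.33 in replicate 2 (SE 0.0717, adjusted p = 0.0478). Against Mock its groups overlapped, with a difference of -0.17. The other large replicate differences were those of Mrpl57 (0.30) and Mrpl14 (0.27), which did not pass. For Mrpl57 the Mock arrays, at 7.002 and 7.57, differed by more than the siRNA arrays, which ran from 7.33 to 7.57.

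The remaining genes of mitochondrial translation were taken as lists. Of the mitochondrial ribosomal proteins with other symbols, 3 of 5 were measured and 2 fell, where 6.19% of all genes fell. Dap3, a GTP-binding protein of the small subunit, was 10.85 and 10.79 in siFip1-2, 10.67 and 10.69 in siFip1-3, and 10.99 and 11.20 in Mock, a fall of 0.35 (limma adjusted p = 0.0381). Gadd45gip1, of the large subunit, fell by 0.60 (adjusted p = 0.0206).

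The list of translation factors, which also holds enzymes such as Metap1d and Gatb, included falls of over 2-fold. Of its 14 measured genes 6 fell and 0 rose (42.9%), with a median of -0.36. Among all genes tested 6.19% fell and 4.15% rose. Mtif2, the initiation factor that brings in the initiator tRNA, was 8.68 and 8.46 in siFip1-2, 8.44 and 8.48 in siFip1-3, and 9.57 and 10.04 in Mock. All siRNA arrays were far below Mock, and it fell by 1.29 (SE 0.141, 2.45-fold, adjusted p = 0.00176). Metap1d, a mitochondrial methionine aminopeptidase, fell by 1.18 (2.26-fold, adjusted p = 0.0055), the release factor Mtrf1l by 1.02 (2.03-fold, adjusted p = 0.00322) and Gatb, a subunit of the amidotransferase that makes glutaminyl-tRNA, by 0.75 (adjusted p = 0.00939). The others that fell were the elongation factor Gfm1 and its relative Gfm2, named after their values were seen.

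Among ribosome assembly and rRNA modification factors, a few genes passed in each direction. Of 27 measured, 3 rose and 2 fell (4.15% and 6.19% over all genes), with a median of -0.09. That is 18.5% in either direction, against 10.3% of all genes, and the share of falls lay near the background. With the replicate block 3 rose and 3 fell, where 8.43% of all genes rose and 11.7% fell. Both shares then lay near the background. Mettl17, an assembly factor of the small subunit, was 9.22 and 9.15 in siFip1-2, 9.04 and 9.01 in siFip1-3, and 8.53 and 8.13 in Mock, and rose by 0.78 (adjusted p = 0.00761). Mrm1, a methyltransferase of the large rRNA, rose by 0.70 (adjusted p = 0.0095). The third rise was that of Mrm3, a related enzyme, named after its value was seen. Mettl15 (-0.64, adjusted p = 0.0257) and Tfb1m (-0.60, adjusted p = 0.0136), both of which methylate the small rRNA, fell.

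Of 23 measured genes of mitochondrial DNA expression and RNA maturation 2 fell and 0 rose, Fastkd5 by 0.44 (adjusted p = 0.0149) and the transcription elongation factor Tefm by 0.39 (adjusted p = 0.0453). Tfam, which packages mitochondrial DNA (0.08), the RNA polymerase Polrmt (0.05) and the mRNA stability factor Lrpprc (-0.07) did not pass. Of 16 mitochondrial aminoacyl-tRNA synthetases 3 fell and 0 rose, Ears2 by 0.59, Fars2 by 0.50 and Rars2 by 0.45 (adjusted p 0.0206 to 0.0298). Of 16 measured import genes 1 fell, the outer membrane receptor Tomm70a, by 0.37 (adjusted p = 0.0337). Of 13 regulators of such nuclear genes 1 fell, the coactivator Ppargc1b, by 0.80 (adjusted p = 0.0135), while Nrf1 (-0.15) and Myc (0.38) did not pass. With the replicate block Myc passed (adjusted p = 0.00878). With the replicate block the lists gave 0 rises and 3 falls (other ribosomal proteins), 1 and 7 (translation factors), 3 and 3 (assembly), 1 and 5 (mitochondrial DNA expression), 0 and 5 (synthetases), 0 and 2 (import) and 1 and 1 (regulators). Over all genes 6.19% fell and 4.15% rose, 10.3% in either direction. Without the block the falls were 8.7% of the mitochondrial DNA expression list, 6.25% of import and 7.69% of the regulators. These 3 shares lay near the background, and the share of the synthetases was 18.8%. With the block 11.7% of all genes fell and 8.43% rose, 20.2% in either direction. No list was tested as a set.

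**Figure D4:**
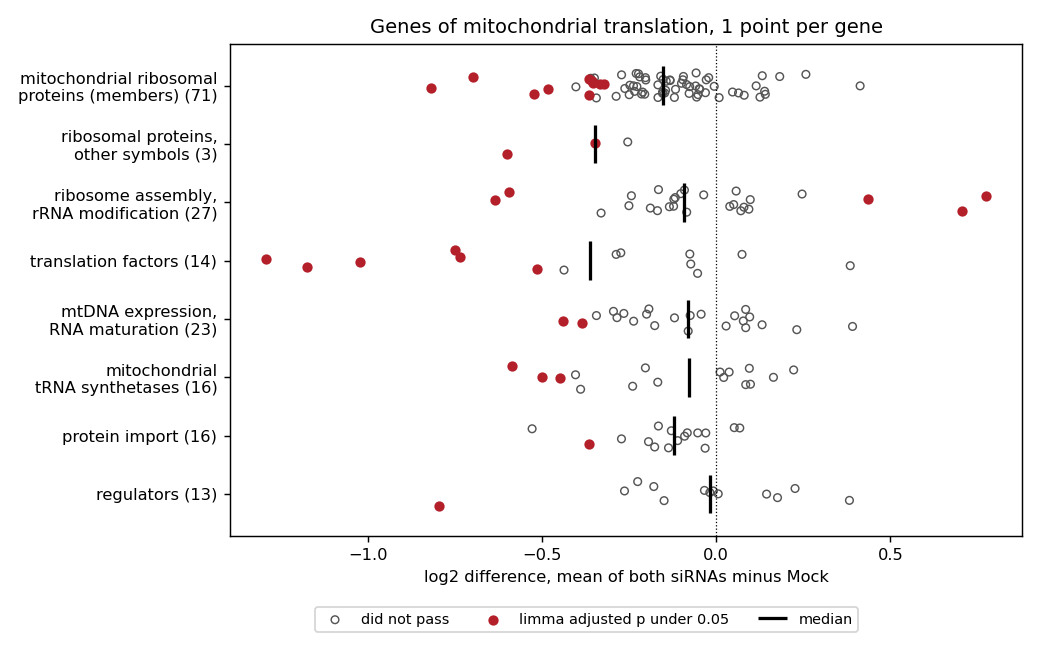
Log2 difference between the mean of both siRNAs and Mock for each gene of the family and of the related lists, with filled red points for genes past the threshold, open points for the others and a black bar at each median. The medians run from -0.36 for the translation factors to -0.02 for the regulators, and the filled points right of 0 are the 3 assembly factors that rose.

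Markers of the labelled cell type were present, and of the other lineages trophectoderm had markers past the threshold. Pou5f1 (difference -0.11), Nanog (0.22) and Sox2 (0.08), which define embryonic stem cells, all stood above the 99th percentile of mean level and did not pass, although Nanog rose in the fit with the replicate block (adjusted p = 0.0312). Of 10 stem cell markers 0 passed in limma, with 1 lower at an unadjusted p under 0.05, and 1 rose and 2 fell with the block. The differences of these 10 ran from -0.433 to 0.221, with 6 negative and 4 positive. Among all genes tested 4.15% rose and 6.19% fell in limma, and 8.43% rose and 11.7% fell with the block. At an unadjusted p under 0.05, 13.7% of all genes were lower. Their summed linear signal ran from 64079 to 69153 in the siRNA groups and from 69395 to 70443 in Mock. Without Dppa5a, the brightest, the sums overlapped, at 42098 to 46439 in the siRNA groups and 45457 to 47014 in Mock. Of 5 trophectoderm markers 2 rose, Eomes by 1.02 (adjusted p = 0.00664) and Gata3 by 0.82 (adjusted p = 0.00697), and 3 rose with the block. The trophectoderm sum was 720 to 1027 in the siRNA groups and 352 to 762 in Mock, and without Krt8, the brightest, it was 255 to 306 in the siRNA groups and 138 to 178 in Mock.

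Of 9 fibroblast markers 0 passed (1 higher at an unadjusted p under 0.05, and 1 rose with the block), and 8 overlapped between the groups. Their sum was 2184 to 2844 in the siRNA groups and 1782 to 2145 in Mock, but Vim alone, which many cell types express, made up 88.9% to 92.7% of it. Without Vim the sums overlapped, at 202 to 263 in the siRNA groups and 198 to 229 in Mock. Of 4 neural markers 0 passed (1 lower at an unadjusted p under 0.05, and 0 with the block), and 3 overlapped. Their sum was 578 to 748 in the siRNA groups and 489 to 571 in Mock, with 71.4% to 84.2% of it from Tubb3. Without Tubb3 the neural sums overlapped, at 119 to 149 in the siRNA groups and 117 to 140 in Mock. Of 4 primitive endoderm markers 0 passed (0 at an unadjusted p under 0.05, and 1 fell with the block), with overlapping sums of 180 to 274 in the siRNA groups and 192 to 288 in Mock. Among all genes tested 10.3% passed in limma in either direction, and 20.2% did so with the block. At an unadjusted p under 0.05, 10.6% of all genes were higher and 13.7% lower. In lists this short, 0 or 1 call lies near that background. Sums without the brightest marker, and the genes named for it, were chosen after seeing the data. The part of cells of other types in the member differences was not tested, and in bulk RNA fewer cells of a type and less RNA per cell cannot be told apart. Probe positions were not used, so a changed transcript end and a changed amount cannot be told apart either.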

How the data were processed

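The deposited values are log2 expression values of 16556 probe sets on 6 Affymetrix arrays, summarised by the authors with RMA, per the submitters' processing notes. The sources used here give neither the RMA version and settings nor the probe set definition. Each probe set ID carries an Entrez gene number. Of the probe sets, 15270 had 1 gene symbol, 0 had several and 1286 had none here. The brighter probe set was kept for the 3 genes with more than 1, which left 15267 genes. Arrays have no read depth, so their number, 2 per group, limits the precision.

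The groups were fitted with limma 3.58.1 in R 4.3.3 (lmFit, then eBayes with a trend over level), on all 6 arrays with a mean per group. P-values were adjusted by Benjamini-Hochberg over all genes at a threshold of 0.05. Differences are siRNA minus Mock. An alternative fit added the replicate number as a block. The titles give all arrays of a replicate number a shared suffix, and deviations from the group means correlated between groups at 0.383 (siFip1-2 and siFip1-3), 0.281 (siFip1-2 and Mock) and 0.443 (siFip1-3 and Mock) over genes, so the numbers were taken to pair the arrays. The comparison of replicates used that fit throughout. The main fit for the siRNAs leaves the pairing out, so variation shared by a replicate number stays in its spread. With the block 18 members fell (11.7% of all genes fell), against 10 without it (6.19% of all genes).

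The members, the gene lists, their classes and the tests were chosen with earlier results of these data known. Genes were named by a rule: Fip1l1, all members that passed with the siRNAs averaged, those closest to it, the 3 with the smallest p between the siRNAs, the 3 with the largest difference between replicates, the brightest and dimmest members, and the largest changes in each list. Named outside this rule were Mrpl12, Mrps12, Lrpprc, Polrmt, Tfam, Nrf1, Myc, Pou5f1, Nanog and Sox2. Other exceptions are named in the text. Other alternatives were median centring, repeated quantile normalization, filters on level, added unnamed probe sets, a prior without trend, and leaving out each array. The fit was tested on simulated data. Promoter windows came from RefSeq (GRCm38.p6).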

Additional observations from a re-analysis of the deposited data

Results flagged for a closer look

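For Mrpl30 the differences from Mock had opposite signs with the siRNAs in both replicates, and neither siRNA alone passed. The differences from Mock were 0.129 and 0.086 with siFip1-2 and -0.021 and -0.007 with siFip1-3 (log2, replicates 1 and 2). The difference between the siRNAs, siFip1-2 minus siFip1-3, was 0.1214 and did not pass in limma (adjusted p = 0.984).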

How the results depend on the processing

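The median member difference stayed between -0.1648 and -0.1259 under all alternatives, against -0.1524, and no member that fell changed sign. With the replicate block 18 members fell and 1 rose for the mean of both siRNAs, 13 fell and 1 rose with siFip1-2, and 17 fell with siFip1-3. These are 25.4%, 18.3% and 23.9% of the members, against 11.7%, 9.95% and 8.38% of all genes. All 10 falls passed under that block. Median centring gave 5 falls and 1 rise for the mean of both siRNAs, and a prior without trend gave 5 falls. Those 5 are 7.04% of the members in each case, near the 5.43% and 5.76% of all genes that fell. With genes below the 25th percentile of level left out, 10 members fell for the mean of both siRNAs (14.1%, against 8.84% of all genes left in). In that fit 1 member rose (6.08% of all genes rose). With each siRNA 5 fell (7.04%), against 6.17% of all genes with siFip1-2 and 5.28% with siFip1-3. With genes below the median level left out, 11 members fell for the mean of both siRNAs (15.7%, against 12.3% of all genes left in). That share was nearer the background than in the main fit, and 1 member rose (8.15% of all genes rose). With siFip1-2, 1 rose and 7 fell (10%), where 6.24% of all genes rose and 9.25% fell. With siFip1-3, 6 fell (8.57%, against 7.28% of all genes). The single replicate call dropped to 0 after quantile normalization, with unnamed probe sets added and without the trend. Leaving out 1 array gave median member differences from -0.1648 to -0.1381. Each of these fits had fewer falls than the 10 of the main fit for the mean of both siRNAs. In most of them the members' share lay near that of all genes. These fits assume that a lone array varies like the other groups. Mrps35 passed in 13 of 13 alternatives, Mrpl54 in 12, Mrps30 in 11, Mrps7 in 9, Mrpl24 in 7, Mrpl11 in 6, Mrpl55 in 5, and Mrpl10, Mrpl21 and Mrps18a in 4. Some genes that did not pass changed sign: Mrps12 was 0.0047 after median centring. Across the fits without 1 array Mrps12 ran from -0.0699 (without Mock replicate 2) to 0.0263 (without Mock replicate 1), Lrpprc from -0.1904 to 0.0406 and Mrpl57, in the opposite order, from 0.4227 to -0.1412. The cause of these changes was not tested. With 2 arrays per group, falls of about 1.3-fold lay near the threshold.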
